A study of Mus musculus with 8 samples.

Results

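The genes described here encode the soluble factors that start and carry out protein synthesis on cytosolic ribosomes, here in microglia, the macrophages that live in brain tissue. They are the genes with a symbol starting with Eif1 to Eif6, Eef1 or Eef2, without the eIF2 kinases (Eif2ak), the eIF4E-binding proteins (Eif4ebp) and the Y-linked Eif2s3y. This gave 54 genes of the 19938 tested, each represented by the probe set with the highest mean over all 8 arrays, and 8 of them had more than 1 probe set. The choice used symbols and mean level only, not the difference between the groups.

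Microglia were sorted from whole brains of mice without MFP2 (multifunctional protein-2) and of wild type controls, with 4 arrays in each group. The gene of MFP2 is Hsd17b4, and the enzyme acts in the peroxisome, where it helps to shorten branched-chain and very long-chain fatty acids. All animals in both groups were Swiss Webster mice labelled female, 17 weeks old, and the cells were taken by flow cytometry for high CD11b and intermediate CD45. The labels give neither the allele of the knockout nor the cells that carry it, and they number the replicates without saying whether 1 animal gave 1 array. The p-values then reflect only how these samples vary, which may be technical.

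In initiation, eIF2 brings the initiator tRNA to the small ribosomal subunit, eIF3 holds that subunit and its partners together, and the eIF4 factors recruit the capped mRNA and unwind it. The start codon is then selected with eIF1, eIF1A and eIF5, and eIF5B joins the large subunit. In elongation, eEF1A delivers each aminoacyl-tRNA, the eEF1B complex recharges eEF1A with GTP, and eEF2 moves the ribosome along the message. In macrophages this machinery takes part in making secreted proteins and receptors.

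Several facts of the arrays bear on these values. Hsd17b4 was lower in every knockout array (4.76 to 7.20, log2) than in every control array (7.82 to 9.09). Knockout 2 stood apart at 7.20, while the other knockouts were at 4.76 to 5.21. The reason for this was not tested. Control 1 went against its label: Xist, the RNA of the inactive X chromosome, was at 6.80 there against 10.82 to 10.99 in the other controls, and Eif2s3y was at 8.14 against 2.78 to 2.99. Array medians ran from 6.03 to 6.15 (log2), but the arrays differed at the bright end. The 99th percentile was 11.41 to 11.62 in controls and 11.86 to 12.02 in knockouts, which touches the brightest of the factors. Of 8 microglial markers 5 were lower in knockouts, with a summed level (log2 of summed linear values) of 14.44 to 14.58 against 14.80 to 14.98 in controls. Of 5 border macrophage markers 4 were lower, with sums of 7.99 to 8.79 against 8.99 to 9.72. Among markers of other cells, Gfap (1 of 5 astrocyte markers), Mbp (1 of 4 oligodendrocyte markers) and Flt1 (1 of 5 endothelial markers) were higher and Pecam1 was lower, while 0 of 7 neutrophil, 0 of 7 T and NK cell, 0 of 3 B cell and 0 of 6 neuronal markers passed the test. The oligodendrocyte sums were 8.72 to 8.90 in controls and 8.93 to 9.11 in knockouts. Of the 4 oligodendrocyte markers, however, 3 had negative changes, as had 3 of 5 astrocyte and 4 of 5 endothelial markers. The astrocyte sums overlapped, at 9.19 to 9.44 in controls and 9.29 to 9.42 in knockouts. So did the endothelial sums, at 8.45 to 8.95 and 8.46 to 9.15, and the neutrophil sums, at 11.42 to 14.10 and 12.67 to 13.50. All 7 T and NK cell and all 3 B cell markers had positive changes (medians 0.28 and 0.28), and all 7 neutrophil markers negative ones (-0.27). The T and NK cell sums overlapped, at 8.61 to 9.49 in controls and 8.97 to 9.82 in knockouts. Those of B cells did as well, at 7.68 to 8.09 and 7.67 to 8.48. Over all tested genes, 5.38% were higher and 4.17% lower. The part of the markers in the results was not tested. In sorted cells measured in bulk, a change in which cells were taken and a change in RNA per cell cannot be told apart.

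Of the 54 translation factors, 12 were higher in MFP2 knockout microglia, 0 were lower and 42 did not pass the test (limma, adjusted p under 0.05 over all 19938 genes). The 12 were the eIF3 subunits Eif3e, Eif3f, Eif3h, Eif3i, Eif3k and Eif3m, the elongation factors Eef1a1, Eef1b2 and Eef2, the cap-complex factor Eif4b, the eIF2 subunit Eif2s3x and Eif1a. That is 22.2% of the factors, where 5.38% of all tested genes were higher, 4.17% lower and 9.55% called in either direction. Calls were more frequent among bright genes, and the 12 factors lay between the 77.4th and 99.9th percentiles of mean level. Of the brightest 1% of genes (199 genes), 64 were higher and 46 lower on the deposited values. Among genes at or above the median level 11.1% were higher, and by the same fit 17 of the 50 factors at or above that level were higher (34.0%) and 0 lower. The median log2 change of the 54 factors was 0.15, against -0.02 over all genes, and 37 of them (68.5%) had a positive change, against 44.2% of all genes. At an unadjusted p under 0.05 there were 19 higher factors and 2 lower ones, Eif4a2 and Eef2k. Each array left out in turn gave 10 to 15 higher factors. Among the 12, Eef1a1 changed sign under 1 other scaling of the arrays and Eef2 missed the threshold under another, as given with their values.

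Knockout and control arrays were fully apart for 19 factors, 18 of them higher and 1 lower in knockouts, where 14% of all genes were without overlap, 7.09% higher and 6.92% lower. The highest of the 8 values came from knockout 4 for 22 of the 54 factors and from knockout 3 for 11. The lowest value came from control 4 for 17 and from control 3 for 13. Changes among the factors ran from -0.65 for Eef2k to 1.27 for Eef1b2.

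**Figure D1:**
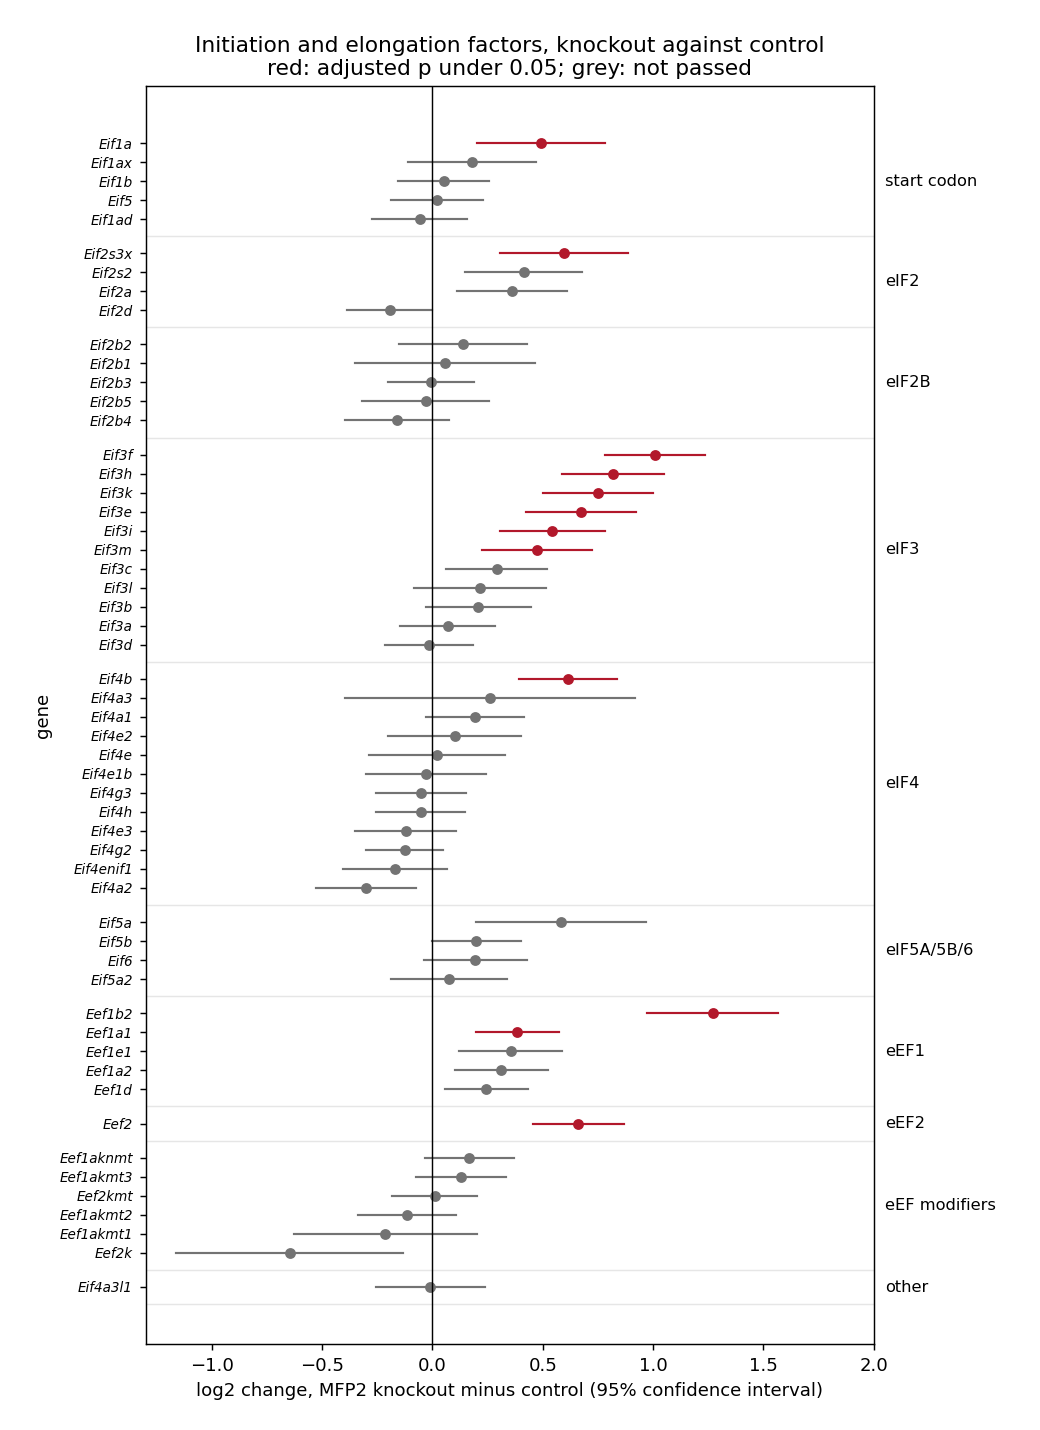
Log2 change between MFP2 knockout and control microglia (x axis, points with 95% confidence intervals) for each of the 54 translation factors (y axis), grouped by role, with those past an adjusted p of 0.05 in red. The 12 red points all lie to the right of 0, and 6 of them are eIF3 subunits; the sign of Eef1a1 turned after cyclic loess (-0.02).

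eIF3 held 6 of the 12 calls, and the changes of its subunits ran from -0.01 (Eif3d) to 1.01 (Eif3f). Of 11 measured subunits 6 were higher (54.5%, against 5.38% of all tested genes) and 0 lower, with a median log2 change of 0.47. Eif3f encodes a subunit with an MPN domain. On the log2 scale, and in the order of the replicate numbers as in every such sentence, it read 9.39, 9.27, 9.34 and 9.11 in controls and 10.12, 10.18, 10.35 and 10.49 in knockouts. Every knockout value lay above every control value, and the difference of 1.01 ± 0.10 (SE), or 2.02-fold, gave a limma adjusted p of 0.000288. Eif3h, the other MPN subunit, read 9.71, 9.68, 9.93 and 9.66 in controls and 10.46, 10.37, 10.71 and 10.71 in knockouts. Its groups were also apart, by 0.82 ± 0.11 (adjusted p = 0.000642). Eif3k, a small PCI-domain subunit, read 9.38, 9.61, 9.36 and 9.31 in controls and 10.04, 10.03, 10.13 and 10.47 in knockouts, a change of 0.75 ± 0.11 (adjusted p = 0.00147). Knockout 4 was the highest array for Eif3f, Eif3h and Eif3k, though for Eif3h it stood level with knockout 3.

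Eif3e, a PCI-domain subunit, rose by 0.67 ± 0.11, from 8.15 ± 0.15 (SD) to 8.82 ± 0.20. Eif3i, a WD-repeat subunit of the eIF3 core, rose by 0.54 ± 0.11 from 9.27 ± 0.07. Eif3m rose by 0.47 ± 0.11 (adjusted p = 0.0205), with 8.39, 8.21, 8.05 and 8.19 in controls and 8.78, 8.41, 8.66 and 8.89 in knockouts, so that knockout 2 exceeded control 1 by little. Its call was lost without control 2, control 3, control 4, knockout 3 or knockout 4 (adjusted p = 0.0503 to 0.0584). Its second, dimmer probe set changed by 0.44 and did not pass when tested on its own (adjusted p = 0.0725 over all probe sets). The sources used here do not say which transcripts or gene copies either probe set of Eif3m reads.

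The remaining eIF3 subunits did not pass. Eif3c, part of the scaffold, had a change of 0.29 (95% confidence interval 0.06 to 0.52) with groups that did not overlap, 9.68 to 9.99 in controls and 10.02 to 10.31 in knockouts. Eif3l (0.22, interval -0.08 to 0.51) and the core subunit Eif3b (0.21, -0.03 to 0.45) overlapped between the groups. Eif3a, the largest scaffold subunit, was at 9.74 ± 0.11 in controls and 9.81 ± 0.15 in knockouts, a change of 0.07 with an interval from -0.15 to 0.28. Eif3d, a cap-binding subunit, was at 9.14 ± 0.10 and 9.13 ± 0.11. The upper bounds for Eif3a (0.28) and Eif3d (0.19) lay below the lower bounds for Eif3f (0.78) and Eif3h (0.59). These genes are the extremes of the 11 subunits and were picked from the same values. Whether subunits differed from each other in their change was not tested.

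**Figure D2:**
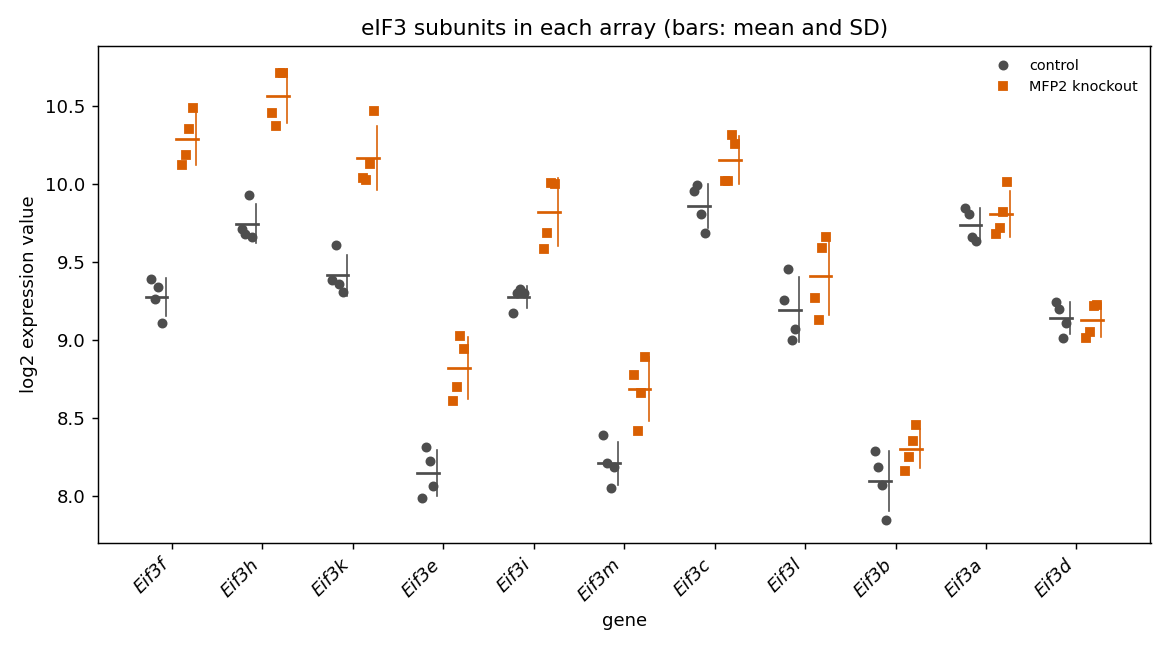
Log2 expression values (y axis) of the 11 measured eIF3 subunit genes (x axis) in the 4 control arrays (grey circles) and 4 MFP2 knockout arrays (orange squares), with the mean and SD of each group. Both groups stand apart for Eif3f, Eif3h, Eif3k, Eif3e, Eif3i, Eif3m and Eif3c and overlap for Eif3l, Eif3b, Eif3a and Eif3d.

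Elongation factors showed the highest single change. Eef1b2 encodes the exchange subunit of eEF1B that reloads eEF1A with GTP. It read 9.50, 9.59, 10.05 and 9.67 in controls and 10.71, 10.91, 11.06 and 11.21 in knockouts, with control 3 the closest control to the knockout arrays. It rose by 1.27 ± 0.14 (SE), or 2.41-fold (adjusted p = 0.000290), and by 1.10 to 1.41 under the 18 alternatives. Eef1d, another eEF1B subunit, changed by 0.25 (interval 0.06 to 0.43, adjusted p = 0.107), from 8.46 to 8.62 in controls to 8.73 to 8.91 in knockouts. It did not pass, although its groups did not overlap.

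Eef1a1, the main carrier of aminoacyl-tRNA, rose by 0.39 ± 0.09 (adjusted p = 0.0132). Its values were 12.45, 12.29, 12.49 and 12.30 in controls and 12.77, 12.69, 12.83 and 12.78 in knockouts. Eef2, the translocase, read 11.02, 10.96, 11.09 and 10.75 in controls and 11.52, 11.63, 11.62 and 11.70 in knockouts, a rise of 0.66 ± 0.09 (adjusted p = 0.00100). Both genes lie at the bright end, where the arrays of the groups differed, and both depended on the scaling of the arrays. Cyclic loess between arrays turned the change of Eef1a1 to -0.02 (adjusted p = 0.925) and left that of Eef2 at 0.40 (adjusted p = 0.00873). Quantile normalization gave 0.27 for Eef1a1 (adjusted p = 0.0386) and 0.26 for Eef2 (adjusted p = 0.132). Over the brightest 1% of genes (199 genes) the median change was -0.00 as deposited, -0.33 after quantile normalization and -0.30 after cyclic loess. The sign of the change in Eef1a1 thus depended on the scaling.

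The other eEF1 genes did not pass. Eef1a2, the isoform best known from neurons and muscle, changed by 0.31 (adjusted p = 0.0630) with groups apart, 6.72 to 7.05 and 7.08 to 7.27, and passed without control 3 (adjusted p = 0.0196). Eef1e1, which encodes a protein of the multi-tRNA synthetase complex rather than an elongation factor, changed by 0.35 (adjusted p = 0.0585). It passed without control 1 (adjusted p = 0.0496) or knockout 1 (adjusted p = 0.0217). On leaving out control 1, control 3 or knockout 1, the eEF1 genes thus had 3 higher members in place of 2. With genes under the median level left out, both passed and the eEF1 genes had 4.

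Among the genes that modify elongation factors, 0 of 6 passed, where 9.55% of all tested genes did. Eef2k, the kinase that inhibits eEF2, read 8.71, 7.47, 8.22 and 7.94 in controls and 7.49, 7.85, 6.94 and 7.47 in knockouts. Its change of -0.65 ± 0.24 (adjusted p = 0.123) was the lowest of the 54, with an interval of -1.16 to -0.13, and control 2 stood among the knockout values. Without control 2 it was called lower, at -0.85 (adjusted p = 0.0430). The second probe set of Eef2k changed by -0.53 (adjusted p = 0.0797 over all probe sets). The methyltransferases of eEF1A and eEF2 had changes between -0.21 (Eef1akmt1) and 0.17 (Eef1aknmt, adjusted p = 0.340), with Eef2kmt at 0.01.

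**Figure D3:**
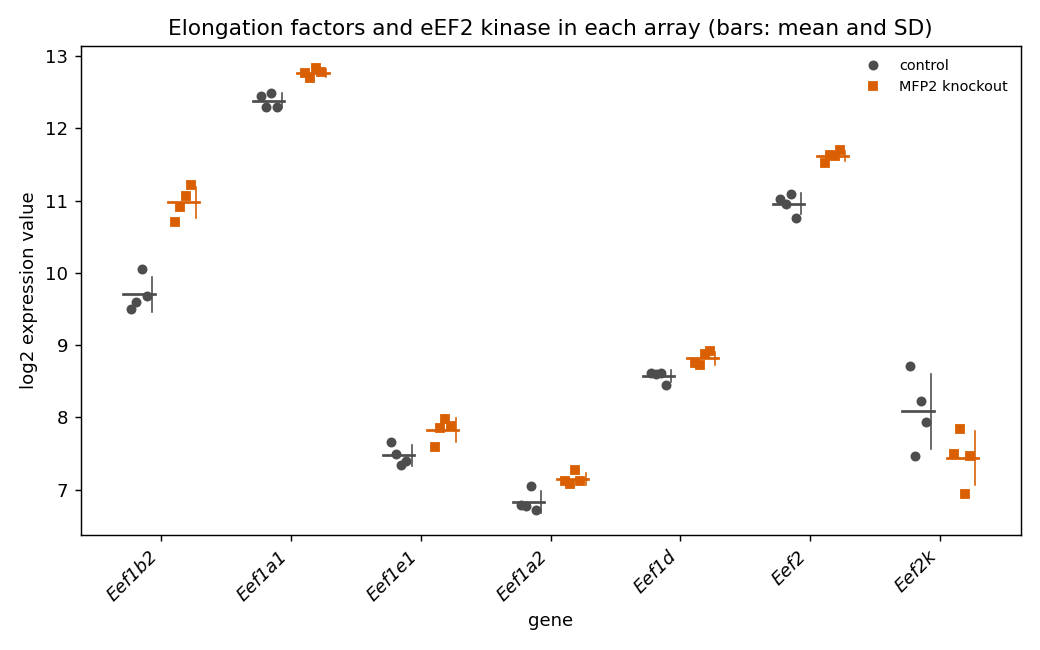
Log2 expression values (y axis) of the eEF1 genes, Eef2 and the eEF2 kinase gene Eef2k (x axis) in 4 control arrays (grey circles) and 4 MFP2 knockout arrays (orange squares), with mean and SD. Every knockout value exceeds every control value for Eef1b2, Eef1a1, Eef1a2, Eef1d and Eef2, while Eef2k spreads from 7.47 to 8.71 in controls and from 6.94 to 7.85 in knockouts. These are the deposited values, and after cyclic loess the change of Eef1a1 was -0.02.

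In the eIF2 group, 1 of 4 measured genes rose (25%, against 5.38% of all tested genes). Eif2s3x, the X-linked gene of the GTP-binding gamma subunit, read 8.92, 9.58, 9.20 and 9.29 in controls and 9.68, 9.76, 9.90 and 10.03 in knockouts, a rise of 0.60 ± 0.13 (adjusted p = 0.0135). Control 1, which had the male pattern of Xist and Eif2s3y, was its lowest array. Without control 1 the rise was 0.49 ± 0.12 (adjusted p = 0.0388). Eif2s3y is a close copy of this gene, and how far its RNA is read by the Eif2s3x probe set was not tested. Eif1ax, the other X-linked factor, was at 8.55 ± 0.20 (SD) in controls, 8.63 in control 1, and 8.73 ± 0.24 in knockouts, and did not pass (adjusted p = 0.515).

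The beta subunit gene Eif2s2 changed by 0.41 ± 0.12 (adjusted p = 0.0541), with 8.84, 9.20, 9.05 and 9.17 in controls and 9.21, 9.38, 9.62 and 9.69 in knockouts. It passed without knockout 1 (adjusted p = 0.0202). Its second probe set changed by 0.18 (adjusted p = 0.322 over all probe sets), a smaller difference, and the sources used here do not say which transcripts or gene copies each probe set reads. Eif2a, a separate initiation factor that is not a subunit of eIF2, changed by 0.36 (adjusted p = 0.0737) with groups apart and passed without knockout 2 (adjusted p = 0.0276). Eif2d, which can deliver tRNA without eIF2, changed by -0.19 (adjusted p = 0.239). On leaving out knockout 1 or knockout 2, the eIF2 group thus had 2 higher members in place of 1, and with genes under the median level left out it had 3.

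eIF2B, the exchange factor that recycles eIF2 and is blocked when eIF2 is phosphorylated, had 0 of 5 genes called. Over all tested genes 9.55% were called. Eif2b4 was at 7.49 ± 0.17 in controls and 7.33 ± 0.14 in knockouts (change -0.16, adjusted p = 0.462), and Eif2b2 at 6.89 ± 0.25 and 7.03 ± 0.18 (0.14, adjusted p = 0.643). Eif2b1, Eif2b3 and Eif2b5 lay between -0.03 and 0.06. The intervals of the 5 subunits all lay between -0.40 and 0.46.

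Of 5 genes of start codon selection 1 was higher (20%, against 5.38% of all tested genes). Eif1a rose by 0.49 ± 0.13 (adjusted p = 0.0363). It read 7.57, 7.78, 7.52 and 7.48 in controls and 7.81, 7.88, 8.23 and 8.40 in knockouts, where knockout 1 was just above control 2. The call was lost without control 1, control 3, control 4, knockout 3 or knockout 4 (adjusted p = 0.0807 to 0.111). Eif1a has near-identical relatives, and 4 further probe sets are annotated to it together with other genes, so this probe set may read more than 1 gene. Eif1b (0.05), the nuclear Eif1ad (-0.06) and Eif5, the GTPase activator of eIF2 (0.02), did not pass.

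In the eIF4 group 1 of 12 genes rose (8.33%, near the 5.38% of all tested genes) and 0 fell, with a median change of -0.04. Eif4b, which stimulates the helicase eIF4A, read 9.16, 9.12, 9.10 and 8.82 in controls and 9.50, 9.72, 9.76 and 9.67 in knockouts. It rose by 0.62 ± 0.10 (adjusted p = 0.00239), and the groups stayed apart with knockout 1 the nearest to the controls. The cap-binding protein gene Eif4e was at 8.46 ± 0.18 and 8.48 ± 0.29, a change of 0.02 with an interval of -0.29 to 0.33. Its probe sets gave -0.09 and 0.12 as well, none past the test. Eif4a1, the helicase itself, changed by 0.19, 0.20 and 0.20 in its 3 probe sets (adjusted p of the first = 0.318).

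Eif4a2, the second helicase gene, read 11.74, 11.72, 11.45 and 11.58 in controls and 11.51, 11.39, 11.19 and 11.21 in knockouts, a difference of -0.30 ± 0.10 (adjusted p = 0.0998). It is also bright, and quantile normalization (-0.70, adjusted p = 0.00389) and cyclic loess (-0.58, adjusted p = 0.0125) each made it a lower call. Eif4g2, an eIF4G relative used in cap-independent initiation, had lower values in every knockout array (10.74 to 10.84) than in every control array (10.86 to 10.99). Its change of -0.12 did not pass (adjusted p = 0.434), and the same 2 scalings called it lower (-0.35 and -0.34). Eif4g3 (-0.05), Eif4h (-0.05), the cap-binding relatives Eif4e2 (0.10), Eif4e3 (-0.12) and Eif4e1b (-0.03), the transporter Eif4enif1 (-0.17) and the exon junction helicase Eif4a3 (0.26, SE 0.30) did not pass, nor did its relative Eif4a3l1 (-0.01), which is in no role group.

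**Figure D4:**
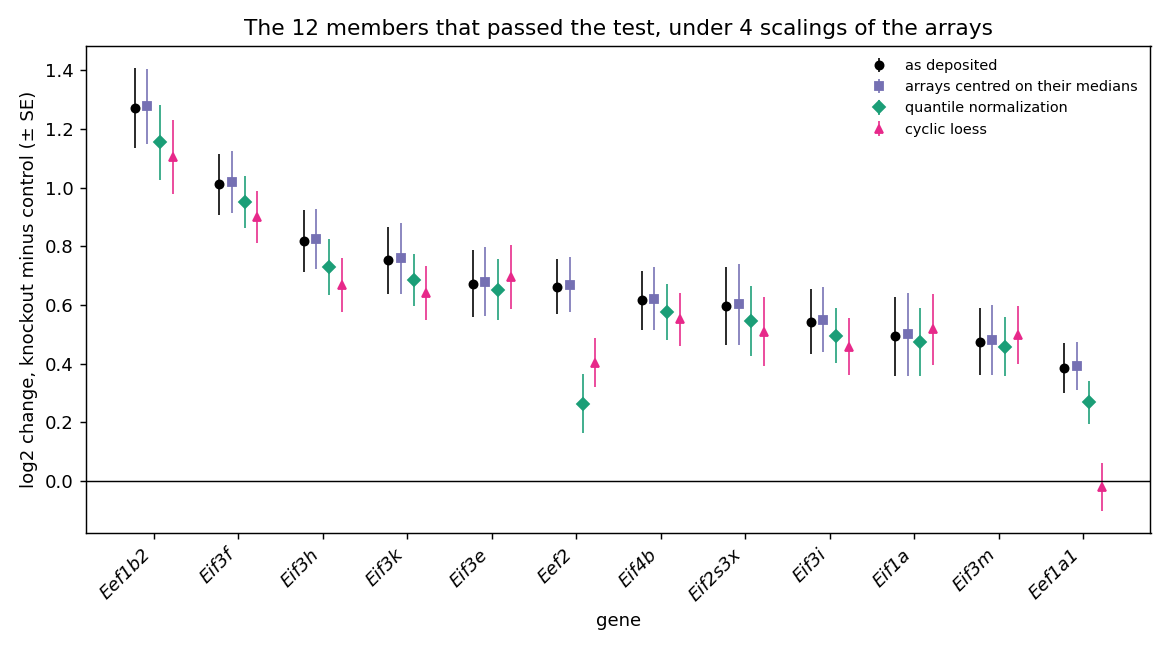
Log2 change between knockout and control (y axis, ± SE) of the 12 translation factors that passed the test (x axis), on the deposited values and under 3 other scalings of the arrays. The change of Eef1b2 lay between 1.10 and 1.28 and that of Eif3f between 0.90 and 1.02, while that of Eef2 fell to 0.26 after quantile normalization and that of Eef1a1 to -0.02 after cyclic loess.

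The group of eIF5B, eIF6 and the eIF5A genes had 0 of 4 genes called, though all 4 changes were positive. Of all tested genes 9.55% were called. Eif5a, the hypusine-carrying factor that helps ribosomes past difficult peptide bonds, read 9.01, 8.82, 8.82 and 8.97 in controls and 9.04, 9.28, 9.57 and 10.07 in knockouts. The knockout arrays spread over more than 1 log2 unit, with knockout 1 at the control level and knockout 4 highest. The change was 0.58 ± 0.18 (adjusted p = 0.0599), and without knockout 1 it was 0.73 and passed (adjusted p = 0.0129). The second, dimmer probe set of Eif5a changed by 0.38 (adjusted p = 0.114 over all probe sets). Which transcripts or gene copies either probe set of Eif5a reads is likewise not given. Eif5b, which joins the subunits, changed by 0.20 (interval -0.00 to 0.40, adjusted p = 0.249). Eif6, which keeps free large subunits apart from small ones, changed by 0.19, and Eif5a2 by 0.08.

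Promoters were compared for the factors that rose together. Of the 54 genes 42 had a promoter in the RefSeq table (250 bases before to 50 after the annotated start, GRCm38.p6), among them 8 of the 12 that rose. Shown are 150 bases before to 20 after the start, 5′ to 3′, for the 4 of these with the lowest adjusted p, with the E-box CACGTG in capitals. Eif3f lies at chr7:108934265-108934434 (plus strand), Eef1b2 at chr1:63176681-63176850 (plus), Eef2 at chr10:81176481-81176650 (plus) and Eif3k at chr7:28981869-28982038 (minus).
Eif3f: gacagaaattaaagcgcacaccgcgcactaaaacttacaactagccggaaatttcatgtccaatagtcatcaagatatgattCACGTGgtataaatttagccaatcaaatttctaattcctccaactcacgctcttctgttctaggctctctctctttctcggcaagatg
Eef1b2: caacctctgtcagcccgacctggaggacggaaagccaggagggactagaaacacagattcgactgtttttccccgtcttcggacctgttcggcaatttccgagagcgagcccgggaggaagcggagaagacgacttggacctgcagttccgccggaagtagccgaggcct
Eef2: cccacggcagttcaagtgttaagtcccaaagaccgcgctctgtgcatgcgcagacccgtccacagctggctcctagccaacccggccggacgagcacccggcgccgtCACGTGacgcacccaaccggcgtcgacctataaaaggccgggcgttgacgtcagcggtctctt
Eif3k: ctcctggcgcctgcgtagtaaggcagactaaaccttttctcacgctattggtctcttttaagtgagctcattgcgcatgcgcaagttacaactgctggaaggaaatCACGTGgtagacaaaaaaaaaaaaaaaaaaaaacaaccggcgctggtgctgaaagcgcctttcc

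The E-box, a palindrome that reads the same on both strands and is bound by factors such as MYC and TFE3, was found in the promoters of Eif3f (bases -68 to -63 from the start), Eef2 (-43 to -38) and Eif3k (-44 to -39). It was in none of the 300 bases of Eef1b2. Of the factors with a promoter, 12 of 42 held it (28.6%), 3 of the 8 that rose (37.5%) and 9 of the 34 that did not pass (26.5%), against 8.09% of all genes in the table and 9.50% of those tested here. The share was thus high among factors that rose and among those that did not pass. TGATGCAA, the core of the composite element bound by ATF4 with C/EBP factors, was found on either strand in 0 of 42 promoters, against 1.03% of all genes. GGAAGTGA, an ETS-type site, was in 4 of 42 (9.52%, against 3.91%), none of them a factor that rose. No match of 1 motif overlapped a match of another in these promoters.

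Many messages of the translation machinery begin with a terminal oligopyrimidine tract, the element through which mTOR and LARP1 control their translation. A search for such a run was added after the values were seen. A run of at least 7 pyrimidines beginning with C, starting within 10 bases before to 11 after the annotated start on the gene's strand, was found for 4 of the 8 promoters of factors that rose (Eif3f, Eef1a1, Eif4b and Eif2s3x), for 6 of the 34 others (17.6%) and for 14.1% of all genes. RefSeq starts can be off by some bases, so a missing run says nothing about the mature message.

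Around the factors, the few calls among other genes of the translation pathway went in both directions. Of 53 measured genes in 4 lists, 6 were higher and 3 lower, and between 5 and 9 were called when an array was left out. By list, 7.14% to 14.3% were higher and 0% to 10% lower, where 5.38% of all tested genes were higher and 4.17% lower. Among the eIF2 kinases, their opposing phosphatase subunits and the eIF4E-binding proteins, 1 of 8 was higher and 0 lower. Eif4ebp1, which blocks eIF4E unless mTOR phosphorylates it, rose by 0.71 ± 0.10 (adjusted p = 0.00109), from 7.14 to 7.43 in controls to 7.81 to 8.17 in knockouts. The kinase genes Eif2ak1 (-0.11), Eif2ak2 (0.34), Eif2ak3 (-0.30) and Eif2ak4 (-0.14) did not pass.

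In mTOR and MNK signalling 1 of 14 genes was higher and 1 lower. Sesn2, a stress-induced inhibitor of mTORC1, rose by 0.78 ± 0.12 (adjusted p = 0.00151), with 6.82 to 7.24 in controls and 7.69 to 8.06 in knockouts. Pdcd4, which inhibits eIF4A, fell by 0.38 (adjusted p = 0.0353), a call lost without control 1, control 2, control 4, knockout 1 or knockout 3 (adjusted p = 0.0638 to 0.103). Mtor itself changed by 0.05.

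Poly(A) binding, release, recycling and modification had 3 of 21 genes higher and 1 lower. Pabpc1, the poly(A)-binding protein that bridges to eIF4G, rose by 0.53 ± 0.10 (adjusted p = 0.00506), but it is bright and changed by 0.07 after quantile normalization (adjusted p = 0.681) and by 0.24 after cyclic loess (adjusted p = 0.0843). Dohh, the second enzyme of eIF5A hypusination, rose by 0.45 (adjusted p = 0.0182, or 0.0529 without knockout 4). It was dim, at 5.39 in controls and 5.84 in knockouts, under the median level of all genes. Its call was also lost without both control 3 and knockout 2 (adjusted p = 0.105). The first enzyme, Dhps, did not pass (0.15). The release factor Gspt1 fell by 0.47 (adjusted p = 0.0235), a call that was lost on leaving out control 1, control 2, control 4, knockout 1, knockout 2 or knockout 3 (adjusted p = 0.0529 to 0.0784). The reinitiation factor Denr rose by 0.34 (adjusted p = 0.0469), a call kept on leaving out knockout 1 and lost on leaving out each of the other arrays (adjusted p = 0.0515 to 0.141).

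Mitochondrial translation factors had 1 of 10 genes higher and 1 lower. Mrrf, the mitochondrial ribosome recycling factor, rose by 0.63 ± 0.11 (adjusted p = 0.00315), and Gfm2, its partner in recycling, fell by 0.52 (adjusted p = 0.0380). The call of Gfm2 was lost without control 1, control 2, knockout 2, knockout 3 or knockout 4 (adjusted p = 0.0572 to 0.118). Tufm, the mitochondrial counterpart of eEF1A, changed by 0.25 (adjusted p = 0.331).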

How the data were processed

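RNA of sorted microglia (5.775 ng a sample) was amplified and hybridised to whole-transcript arrays, per the labels' protocols; low input can raise the spread between arrays. The authors deposited 1 log2 value per probe set and array, and the submitters' processing notes name RMA without a version. That the logarithm has base 2 was inferred from the values, which ran from 2.04 to 13.99, and the bright ends of the arrays were not equal. Of 28874 probe sets 21789 had 1 gene symbol in the platform annotation, 1621 had several and 5464 none, and 0 columns were unmatched. Symbols of the 54 factors all matched the RefSeq table.

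Knockout minus control was fitted by lmFit and eBayes (limma 3.58.1, R 4.3.3; two-sided, no covariate) over 19938 genes with Benjamini-Hochberg adjustment; a gene rose or fell where the adjusted p was under 0.05. The method was tested on simulated data. Figures used matplotlib 3.10.9 in Python 3.11.15. The members, lists and rules were chosen with earlier results of these data known. For each role group the called members with the lowest adjusted p were named with array values, as were the 3 brightest members. Eif1ax and the 2 members named where none passed were given by array values, group means or change. Other members were mostly given by change, group means or a range of changes. Listed genes without a single-symbol probe set (such as Eif1, Eif2s1, Eif3g, Eif4g1 and Eef1g) are not analysed here.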

Additional observations from a re-analysis of the deposited data

Results flagged for a closer look

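In 6 of the 108 groups of 4 arrays (54 factors in both groups), 1 array stood apart from the other 3 by a gap that is a larger share of the group's whole range than Dixon's critical value for 4 samples; chance gives about 1 in 20 groups. Control 4 was low for Eif4b (8.82 against 9.10 for the next, 0.835 of the range) and for Eef1d (8.46 against 8.60, 0.902). Control 1 was low for Eif3i (9.17 against 9.30, 0.861), and control 3 was high for Eef1akmt1 (7.68 against 6.81, 0.894). Knockout 4 was high for Eif4e2 (8.85 against 8.36, 0.920) and Eif4g3 (9.26 against 9.05, 0.899). Eif4b and Eif3i, the called genes among these, passed the test without each of these arrays.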

How the results depend on the processing

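Of the 12 factors that rose, 8 (Eef1b2, Eif2s3x, Eif3e, Eif3f, Eif3h, Eif3i, Eif3k and Eif4b) kept their direction and call under all 18 alternative fits, which gave 10 to 17 higher factors. Scaling mattered for bright genes: 2 factors (Eif4a2 and Eif4g2) were called lower after quantile normalization and 2 after cyclic loess, which also turned the change of Eef1a1 to -0.021. With each array left out in turn, 0 to 1 factors were lower, 5 to 9 of the other pathway genes were called (5 without both control 3 and knockout 2) and 1260 to 1982 genes were called in all, the fewest without knockout 3. An adjusted p under 0.01 left 8 higher factors, 4 pathway genes and 925 genes in all, and a change of at least 1.5-fold left 8, 3 and 910. Eif2b2 turned to -0.00099 without control 3 and knockout 2. The causes were not tested. The replicate number as a block gave 13 higher factors, losing Eif1a (adjusted p = 0.0612) and adding Eif2s2 and Eif5a. Over all genes, deviations from the group means correlated at -0.065 to 0.158 between control and knockout arrays of the same number. Between arrays of different numbers they correlated at -0.128 to 0.073. The highest value was that of control 1 with knockout 1. Such correlations cannot decide whether the numbers pair the samples. The 4 arrays per group limit every interval, and 4 factors fell below the filter on dim genes.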
